A study of Homo sapiens with 12 samples.

Results

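The HOXC cluster is the group of 9 HOX genes on human chromosome 12: HOXC13, HOXC12, HOXC11, HOXC10, HOXC9, HOXC8, HOXC6, HOXC5 and HOXC4. The members were taken by name from a RefSeq gene table of assembly GRCh38.p14, in which all 9 of 9 were found among 20037 protein-coding genes. Their bodies and the space between them were examined in peak lists from HepG2/C3A cells, an established liver cancer line with epithelial-like growth. The method was CUT&Tag, in which an antibody directs a transposase to chromatin and the released fragments are sequenced. One antibody recognised histone H3 trimethylated at lysine 27 (H3K27me3), and the other recognised succinyl-lysine whichever protein carries it (pan-succinyllysine, Ksu). Treated cells received 10 mM sodium succinate for 48 hours and control cells did not. The series' design text calls the control a vehicle, and the labels say that the succinate was dissolved in sterile water. Both treatments used the same line in the same medium, with 0.5 ug of H3K27me3 antibody or 1 ug of Ksu antibody per reaction. There were 2 libraries per antibody and treatment, 8 in all. Of the 12 samples listed, the 4 IgG samples were not analysed here, so no value below was set against an antibody background.

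HOX genes encode homeodomain transcription factors that give cells their position along the body axis, and the order of the genes along a cluster follows the order of the body regions in which they act. HOXC13 lies at the posterior end of the cluster and HOXC4 at the anterior end. In cells that do not use them, HOX genes usually lie in broad stretches of H3K27me3, which Polycomb repressive complex 2 deposits and which the KDM6 enzymes of the Jumonji family remove. Jumonji demethylases use alpha-ketoglutarate as a co-substrate and release succinate, which inhibits them when it accumulates. Lysine succinylation is the transfer of a succinyl group to a lysine side chain.

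The cluster spans 117200 bp of chromosome 12, from 53938831 to 54056030 in hg38, and 57.6% of this span lies in the members' bodies. HOXC13 takes up 53938831 to 53946544, HOXC12 53954903 to 53958956, HOXC11 53973126 to 53977643 and HOXC10 53985146 to 53990279. HOXC9 takes up 54000161 to 54003337 and HOXC8 54008985 to 54012769. In the table HOXC6, HOXC5 and HOXC4 begin at the same base, 54016888, and end at 54030823, 54035361 and 54056030. The body of HOXC6 is therefore contained in that of HOXC5 and both in that of HOXC4, so that values for these 3 genes share bases.

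The 250 bases before that shared start are printed to show the sequence at a start that lay under H3K27me3 in every library and under Ksu in none. Among the members, HOXC4 and HOXC5 were the 2 matched in the promoter table used here. The bases occupy 54016638 to 54016887 on the plus strand of chromosome 12 (RefSeq, GRCh38.p14), and capitals mark each CG dinucleotide.

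HOXC4 and HOXC5 upstream: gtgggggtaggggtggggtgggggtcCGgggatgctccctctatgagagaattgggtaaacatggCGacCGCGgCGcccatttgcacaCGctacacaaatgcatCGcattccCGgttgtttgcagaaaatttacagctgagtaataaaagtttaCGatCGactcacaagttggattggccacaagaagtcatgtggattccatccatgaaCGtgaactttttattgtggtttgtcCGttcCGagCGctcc

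These 250 bases hold 14 CG dinucleotides and are 50.8% G or C. Of 35116 such records in the table, 44.8% hold as many CG dinucleotides or more, and the median is 11. The letters TTTAT, which posterior HOX proteins are known to prefer, occur once on each strand, and 32.7% of all records hold them on either strand. TAAT, the core of many homeodomain sites, occurs 1 time, on the plus strand, and 47.4% of all records hold it. CCAAT occurs 2 times, both on the minus strand, and 32.0% of all records hold it. TATAAA does not occur in this window and is held by 10.7% of records.

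The cluster also holds a pair of microRNA genes, which are printed because both lay wholly under H3K27me3 in all 4 libraries. The first, MIR196A2, also has related genes in the HOXA and HOXB clusters. MIR196A2 lies between HOXC10 and HOXC9, at 53991738 to 53991847, and MIR615 lies within the bodies of HOXC5 and HOXC4, at 54033950 to 54034045. The mature RNAs from RefSeq are given with the seed, bases 2 to 8, in capitals. The miR-196b-5p of the HOXA cluster is added for comparison.

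hsa-miR-196a-5p: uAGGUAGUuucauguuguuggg

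hsa-miR-196b-5p: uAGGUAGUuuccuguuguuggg

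hsa-miR-196a-3p: cGGCAACAagaaacugccugag

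hsa-miR-615-5p: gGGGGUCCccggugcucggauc

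hsa-miR-615-3p: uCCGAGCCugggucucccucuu

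miR-196a-5p and miR-196b-5p share the seed AGGUAGU, which no other mature miRNA of the table has, and differ by A12C, counted from the 5′ end of miR-196a-5p. The same miR-196a-5p is encoded a second time in the HOXB cluster, by MIR196A1. miR-196 is known to target HOX transcripts. The hairpins of MIR196A2, MIR615, MIR196B and MIR196A1 were 100% covered by H3K27me3 peaks in all 4 libraries, as were 10.6% of the 1562 hairpins on the chromosomes. None of these 4 hairpins was under a Ksu peak in any library, which was also true of 74.1% of all hairpins and of 71.5% of those wholly under H3K27me3.

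Each library came as a list of peaks called by SEACR, a caller that joins covered bases into blocks and keeps those whose total signal passes a threshold. The H3K27me3 lists held 5531 to 19133 peaks and covered 3.79% to 6.45% of the 24 chromosomes. The Ksu lists held 76702 to 629903 peaks and covered 2.60% to 10.7%. Read depth is unknown from these lists. The weakest listed peak had a total signal of 51892 to 330249.9 steps for H3K27me3 and 49 to 8977 steps for Ksu, a step being the smallest unit of signal in a library, so a stretch without a peak may hold signal under the threshold of that library. The labels number the libraries as biological replicates and do not say what separates them, so p-values measure only the spread between these libraries. With 2 libraries against 2, the exact two-sided permutation test cannot give a p below 0.333. None of the 12 liver genes used as markers of the cell type, among them ALB and HNF4A, was overlapped by H3K27me3 in any library. Of all protein-coding bodies, 13.6% to 23.4% were overlapped in a library, so absence was the usual state and says little about the cell type.

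H3K27me3 lay over the HOXC cluster almost without a break. In control replicate 1 and in succinate replicate 2, a single peak covered 100% of the span. In control replicate 2, 95.1% of the span was covered by 2 peaks, and in succinate replicate 1, 97.5% was covered by 2 peaks. The cover was 97.5% ± 3.48 (SD, n = 2) in control and 98.8% ± 1.74 (SD, n = 2) in succinate. The difference, 1.23 percentage points, was smaller than the pooled SD, 2.75 (p = 1 by exact permutation). With 1 library of each treatment at 100%, the treatments had to overlap, and cover could not show a gain of H3K27me3 above this ceiling. Its sign rests on the libraries with a break: it was -1.23 without control replicate 2 and -0.00043 without succinate replicate 2. Over gene bodies alone the cover was 100% and 92.7% for control and 95.7% and 100% for succinate, a difference of 1.501 with a pooled SD of 4.21 (p = 1 by exact permutation).

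**Figure D1:**
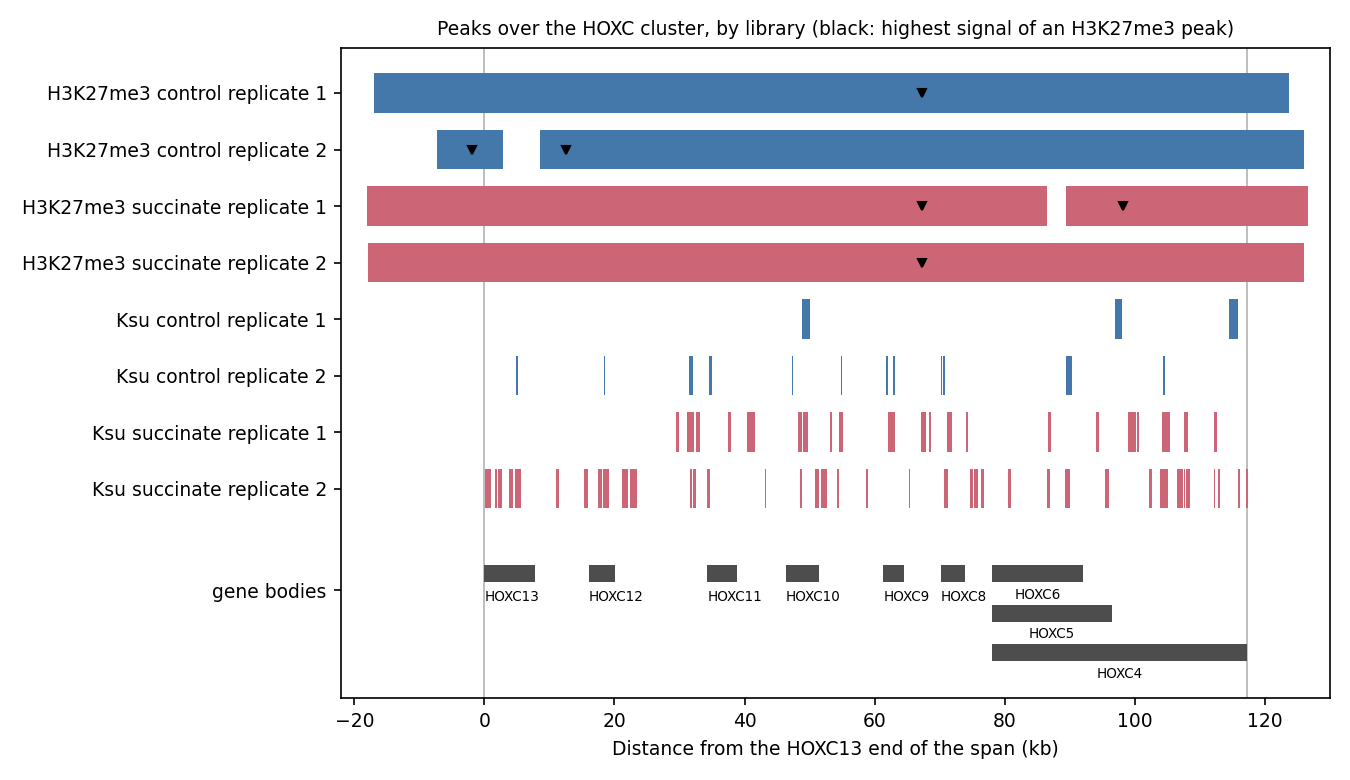
Peaks over the HOXC cluster in each library, along the distance in kb from the HOXC13 end of the span, with the 9 gene bodies at the bottom. Blue bars are peaks of control libraries, red bars peaks of succinate libraries, grey lines the ends of the span, and black triangles the place of the highest signal in each H3K27me3 peak. H3K27me3 covered 95.1% to 100% of the span in every library, and Ksu peaks were short, with 3 and 12 in control and 22 and 39 in succinate.

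All 9 members were overlapped by H3K27me3 in all 4 libraries, where 12.3% of all protein-coding gene bodies were. HOXC12, HOXC11, HOXC10, HOXC9 and HOXC8 were covered along their whole length in all 4 libraries, 5 of 9 members against 2.72% of all bodies. At least 50% of the body was covered in all 4 libraries for 8 of 9 members, all but HOXC13, and for 6.65% of all bodies. The median member was 100% covered in each library, and the median protein-coding gene was 0% covered. Cover is at its ceiling here. All 9 members were at 100% in control replicate 1 and in succinate replicate 2, so none could be higher, or lower, in both succinate libraries than in both controls. The counts of 0 in each direction, beside 3.71% of all bodies higher and 1.13% lower, therefore say nothing about a change.

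The 2 breaks fell in different parts of the cluster. HOXC13, a regulator of hair and nail keratin genes, was covered over 100%, 36.4%, 100% and 100% of its body in control replicates 1 and 2 and succinate replicates 1 and 2. Only control replicate 2 was low, because 5761 bp from 53941637 to 53947397 were not under a listed peak there, and 4908 of these lie in HOXC13. HOXC6, which acts at the level of the forelimb and anterior thorax, was covered over 100%, 100%, 79.3% and 100% of its body in the same order. HOXC5 was covered over 100%, 100%, 84.4% and 100%. HOXC4, the most anterior member, was covered over 100%, 100%, 92.6% and 100%. Only succinate replicate 1 was low for these 3 genes, and by the same 2881 bp from 54025398 to 54028278. In both stretches the other 3 libraries had H3K27me3 throughout, so neither break was shared by the libraries of a treatment.

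The noncoding genes between the members had the same cover. HOTAIR, a long noncoding RNA studied for its link with Polycomb complexes, lies between HOXC12 and HOXC11, partly over HOXC11, from 53962312 to 53974954. It was 100% covered by H3K27me3 in all 4 libraries. HOXC-AS1, HOXC-AS2 and HOXC-AS3, which lie beside HOXC9 and HOXC10, and HOXC13-AS, beside HOXC13, were also 100% covered in each. So were LOC124902939 and LOC105369775, the second of which lies from 53953385 to 53956427, partly over HOXC12. The 250 bases before the shared start of HOXC4 and HOXC5, printed above, were 100% covered in each, as were 8.01% of all such records.

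The outer edges of the H3K27me3 were close in most libraries. On the HOXC13 side the first peak began at 53921873 in control replicate 1, 53931581 in control replicate 2, 53920844 in succinate replicate 1 and 53920889 in succinate replicate 2. The 4 edges spread over 10737 bp, and without control replicate 2, which lay innermost, over 1029 bp. The distance outside the span was 12104 bp ± 6865 (SD, n = 2) in control and 17964.5 bp ± 31.8 (SD, n = 2) in succinate. The difference of 5860.5 bp with a pooled SD of 4854 had no overlap of treatments (p = 0.333 by exact permutation, the lowest attainable), and it was 1006.5 bp without control replicate 2 and 10714.5 bp without control replicate 1.

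On the HOXC4 side the last peak ended at 54062609 and 54064875 in control and at 54065463 and 54064876 in succinate. The edges of control replicate 2 and succinate replicate 2 were 1 bp apart, although the treatments did not overlap. The distance outside the span was 7712 bp ± 1602 (SD, n = 2) in control and 9139.5 bp ± 415 (SD, n = 2) in succinate, a difference of 1427.5 bp with a pooled SD of 1170 (p = 0.333 by exact permutation). Without control replicate 1 it was 294.5 bp. From end to end the H3K27me3 measured 140737 and 133295 bp for control, and 144620 and 143988 bp for succinate.

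**Figure D2:**
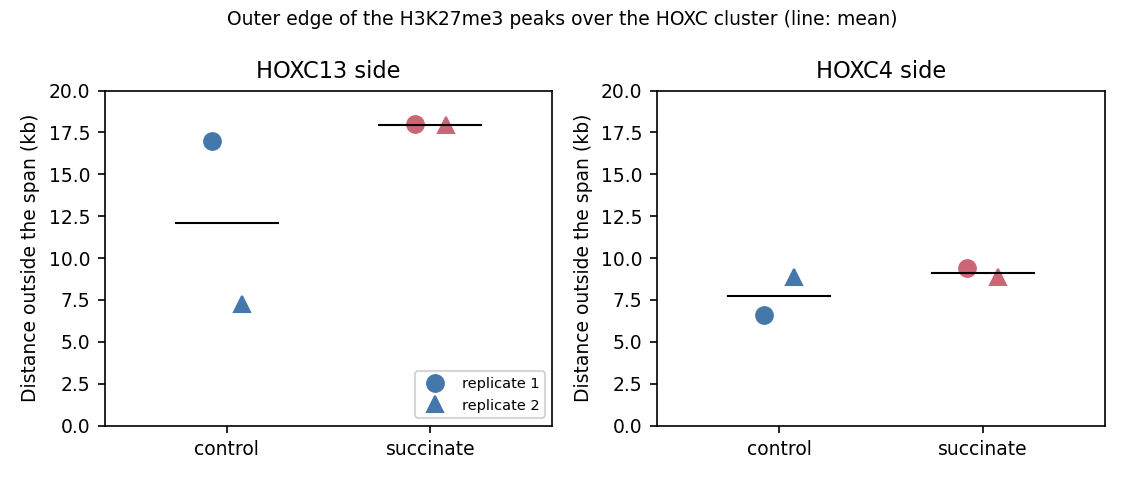
Distance in kb from each end of the HOXC span to the outer edge of the H3K27me3 peaks, for control (blue) and succinate (red) libraries, with circles for replicate 1, triangles for replicate 2 and a black line at the mean. On the HOXC13 side 3 libraries lie between 16958 and 17987 bp outside the span and control replicate 2 lies at 7250 bp, and on the HOXC4 side the libraries lie between 6579 and 9433 bp.

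The space beyond the edges differed between the sides. On the HOXC13 side no further H3K27me3 peak was listed for 69235 to 79927 bp. On the HOXC4 side the next peak began after 5527 and 18488 bp for control, and 13303 and 2545 bp for succinate. The nearest protein-coding genes are CALCOCO1, 211378 bp away on the HOXC13 side, and SMUG1, a DNA repair glycosylase gene 102204 bp away on the HOXC4 side. CALCOCO1 was 0.428% and 0% covered by H3K27me3 in control and 0.211% and 48.2% in succinate, high in succinate replicate 2 alone. SMUG1 was 64.2% and 62.0% covered in control and 63.6% and 67.3% in succinate. CBX5, which encodes the heterochromatin protein HP1-alpha, lies beyond SMUG1 and was 0% covered in each.

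Within the H3K27me3, the highest signal fell in the same place in 3 of 4 libraries. It lay at 54006112 to 54006114 in control replicate 1, at 54006107 to 54006109 in succinate replicate 1 and at 54006114 in succinate replicate 2, all within 8 bp and between HOXC9 and HOXC8. Control replicate 2 had its highest signal at 53951339 to 53951341, between HOXC13 and HOXC12. The size of a step differed between libraries, and signal is given here in steps. The highest value was 380 and 541 steps in control and 572 and 1142 steps in succinate, where the median peak of the same library reached 83.0, 149, 136 and 246 steps. Because steps depend on a depth that is unknown, these heights were not compared between libraries.

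The peaks over the cluster were among the largest of each list. The widest in each library measured 140737, 117478, 104554 and 143988 bp, and ranked 6 of 19133, 22 of 5813, 65 of 9985 and 36 of 5531 by width. By total signal the same peaks ranked 12, 20, 52 and 34. Their mean signal was 47.4, 62.7, 73.1 and 92.0 steps per base, against medians of 18.3, 31.0, 28.3 and 43.7 over all peaks of the same libraries. The smaller peaks beside the breaks were weaker. The peak over the start of HOXC13 in control replicate 2 had 1.88 times the total signal of the weakest peak listed in that library, and the HOXC4 peak in succinate replicate 1 had 14.7 times.

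Ksu peaks covered more of the cluster in succinate than in control. They took up 3.19% and 3.70% of the span in control and 12.4% and 17.6% in succinate. Control libraries were low and succinate libraries high, without overlap. The means were 3.45% ± 0.361 (SD, n = 2) and 15.0% ± 3.66 (SD, n = 2), a difference of 11.5 percentage points with a pooled SD of 2.60 (p = 0.333 by exact permutation, the lowest attainable). Over gene bodies alone the cover was 5.54% and 5.04% for control and 12.6% and 19.9% for succinate, a difference of 10.9 with a pooled SD of 3.64 (p = 0.333 by exact permutation).

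Ksu cover also differed over the genome, at 2.60% and 6.004% of the chromosomes in control and 6.10% and 10.7% in succinate. Divided by this share, the cover of the span came to 1.23 and 0.617 for control and 2.03 and 1.65 for succinate, again without overlap. On the log2 scale succinate was higher by 1.07 with a pooled SD of 0.52 (p = 0.333 by exact permutation), and 0.58 without control replicate 2. The 500 kb on each side of the span moved with it: Ksu peaks covered 1.77% and 4.75% of these flanks in control and 8.32% and 13.9% in succinate. Divided by its own flanks, the cover of the span came to 1.81 and 0.780 for control and 1.49 and 1.27 for succinate, so that the treatments overlapped and the log2 difference was 0.21 (p = 1 by exact permutation).

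With equal numbers of Ksu peaks, 76702 of highest total signal from each list, the treatments overlapped as well. Cover of the span was then 3.19% and 0% for control and 7.79% and 2.15% for succinate, a difference of 3.37 percentage points (p = 0.667 by exact permutation). A common floor keeps only peaks with at least as many steps as the weakest peak of control replicate 1. It sets steps of different libraries side by side although their depth is unknown, and left 76702, 2526, 42885 and 35927 peaks. With it the cover was 3.19% and 0% for control and 5.93% and 0.968% for succinate. The difference became 1.85 (p = 0.667 by exact permutation), and succinate replicate 1 was the highest library under both settings.

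Single members differed widely between libraries. Ksu overlapped 2 and 9 of the 9 bodies in control and 7 and 8 in succinate. Of all protein-coding bodies it overlapped 34.8% and 71.1% in control and 72.2% and 84.4% in succinate, so the whole lists differed as well. The 2 overlapped in all 4 libraries were HOXC10 and HOXC4, where 31.7% of all bodies were. No member was overlapped in both succinate libraries and neither control library, and 7.63% of all bodies were. HOXC8, HOXC5 and HOXC4 were higher in both succinate libraries than in both control libraries, 3 of 9 members, and 46.6% of all bodies were. No member was lower in both, and 0.484% of all bodies were. Whether the members' share, 33.3%, differs from that of all genes was not tested, and HOXC5 and HOXC4 share bases. At equal numbers of peaks, 0 members and 15.8% of all bodies were higher in both succinate libraries.

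Among the posterior members, HOXC13 was 0% and 4.78% covered by Ksu in control and 0% and 45.0% in succinate. HOXC12 was 0% and 5.25% covered in control and 0% and 41.4% in succinate. For both genes only succinate replicate 2 was high, and succinate replicate 1 had no peak. HOXC11 was 0% and 10.3% covered in control and 9.25% and 8.32% in succinate, so that control replicate 2 was the highest. HOXC10, which acts at the lumbar level and in the hindlimb, was 23.6% and 2.40% covered in control and 25.5% and 19.6% in succinate. Its control libraries lay far apart and overlapped the succinate range. HOXC9, a thoracic regulator of motor neuron identity, was 0% and 20.02% covered in control and 35.1% and 0% in succinate.

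In the middle and anterior part of the cluster, HOXC8 was 0% and 10.0% covered by Ksu in control and 21.9% and 16.4% in succinate. Both succinate libraries were above both controls. HOXC6 was 0% and 6.72% covered in control and 3.23% and 11.0% in succinate, with overlap. HOXC5 was 0% and 5.07% covered in control and 5.13% and 11.5% in succinate, and control replicate 2 and succinate replicate 1 differed by 936 against 947 bp. HOXC4 was 6.46% and 3.10% covered in control and 12.4% and 16.0% in succinate, and it held 2 and 2 peaks in control against 7 and 13.

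**Figure D3:**
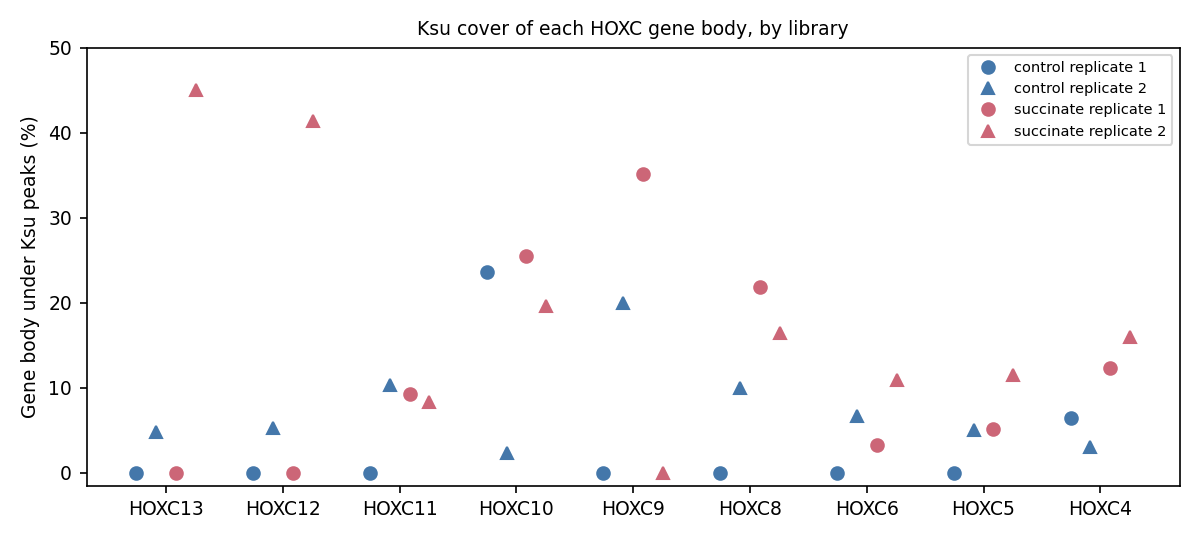
Percent of each HOXC gene body under Ksu peaks, ordered from HOXC13 to HOXC4, with blue for control, red for succinate, circles for replicate 1 and triangles for replicate 2. HOXC13 and HOXC12 are high in succinate replicate 2 alone, at 45.0% and 41.4%, whereas HOXC8 and HOXC4 have both succinate libraries above both controls.

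Pairs of libraries shared from 0% to 49.7% of the Ksu bases of the library with less cover. How much overlap the cover alone would give was not computed. Of the span, 36363 bp were under a Ksu peak in at least 1 library, 6165 bp in at least 2, 661 bp in at least 3 and 0 bp in all 4. Both succinate libraries shared 2818 bp, which is 19.4% of the Ksu bases of replicate 1 and 13.7% of those of replicate 2, and both control libraries shared 0 bp. Libraries of different treatments shared bases as well. Control replicate 2 shared 2157 bp with succinate replicate 2, 49.7% of its own Ksu bases and 10.5% of the other, and 1545 bp with succinate replicate 1, 35.6% and 10.6%. Control replicate 1 shared 803 bp with succinate replicate 1, 21.5% and 5.53%, and 164 bp with succinate replicate 2, 4.38% and 0.797%. The longest stretch common to both succinate libraries measured 960 bp, from 54042967 to 54043926 within HOXC4, and 278 bp of it were also under a peak of control replicate 2. The next measured 397 bp, from 54046701 to 54047097 within HOXC4, and the next 381 bp, from 53987287 to 53987667 within HOXC10. The 397 bp held no control peak, and 55 of the 381 bp were under a peak of control replicate 1. Over the span the median width of Ksu peaks was 1214 and 288 bp for control, and 545 and 493 bp for succinate.

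Most of the cluster had no Ksu peak in any library, since 31.0% of the span was under a peak in at least 1. Of the elements named here, those without any were HOXC-AS1, HOXC-AS2, HOXC-AS3 and LOC124902939, both microRNA hairpins and the 250 bases before the shared start of HOXC4 and HOXC5. For the long noncoding genes, the share over the genome was not counted. Of all such 250-base records, 72.5% had no Ksu peak in any library, and of those wholly under H3K27me3 in all 4 libraries, 61.6% had none. HOTAIR had 0% and 8.99% Ksu cover in control and 16.7% and 8.42% in succinate. Its control replicate 2 lay above succinate replicate 2.

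HOXC was set beside the other 3 HOX clusters, each taken from the first to the last base of its genes. H3K27me3 covered 43.0%, 43.9%, 43.8% and 44.2% of the HOXA span in control replicates 1 and 2 and succinate replicates 1 and 2. It covered 71.1%, 62.1%, 74.6% and 73.6% of the HOXB span and 83.4%, 71.5%, 71.3% and 71.7% of the HOXD span. HOXC was above each of these in every library. HOXC minus the mean of the other clusters was 34.1, 35.9, 34.3 and 36.8 percentage points, a mean of 35.3 ± 1.28 (SD, n = 4), above 0 in 4 of 4 libraries (exact sign permutation p of 1 in 8, the smallest possible). Part of this lies between genes: over gene bodies alone HOXB had 99.7% to 100% cover, and HOXC 92.7% to 100%. On that measure HOXC was above HOXB in no library. Gene bodies fill 37.0% of the HOXB span and 57.6% of the HOXC span. Covered along the whole body in all 4 libraries were 3 of 11 HOXA, 9 of 10 HOXB, 6 of 9 HOXD and 5 of 9 HOXC genes, against 2.72% of all bodies. Of the members, 6 of 11 HOXA, 10 of 10 HOXB and 8 of 9 HOXD genes were overlapped by H3K27me3 in all 4 libraries, against 9 of 9 HOXC genes.

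For Ksu the order of the clusters differed between libraries. HOXC minus the mean of the others was 1.85 and -0.83 percentage points for control and 2.95 and 1.15 for succinate, a mean of 1.28 ± 1.59 (SD, n = 4), above 0 in 3 of 4 libraries (exact sign permutation p = 0.25). Relative to the chromosomes, HOXA had 0 and 0.340 in control and 0.746 and 1.48 in succinate. HOXB had 0.801 and 0.928 in control and 2.53 and 1.57 in succinate, and HOXD had 0.751 and 0.997 against 1.37 and 1.58. All 4 clusters had both succinate libraries above both control libraries on this scale, and that HOXC differed from the others in Ksu was not established. How often other regions were separated in this way was not counted. For HOXC the treatments overlapped when its flanks were the reference and at equal numbers of peaks. The flanks of the other clusters were not measured.

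**Figure D4:**
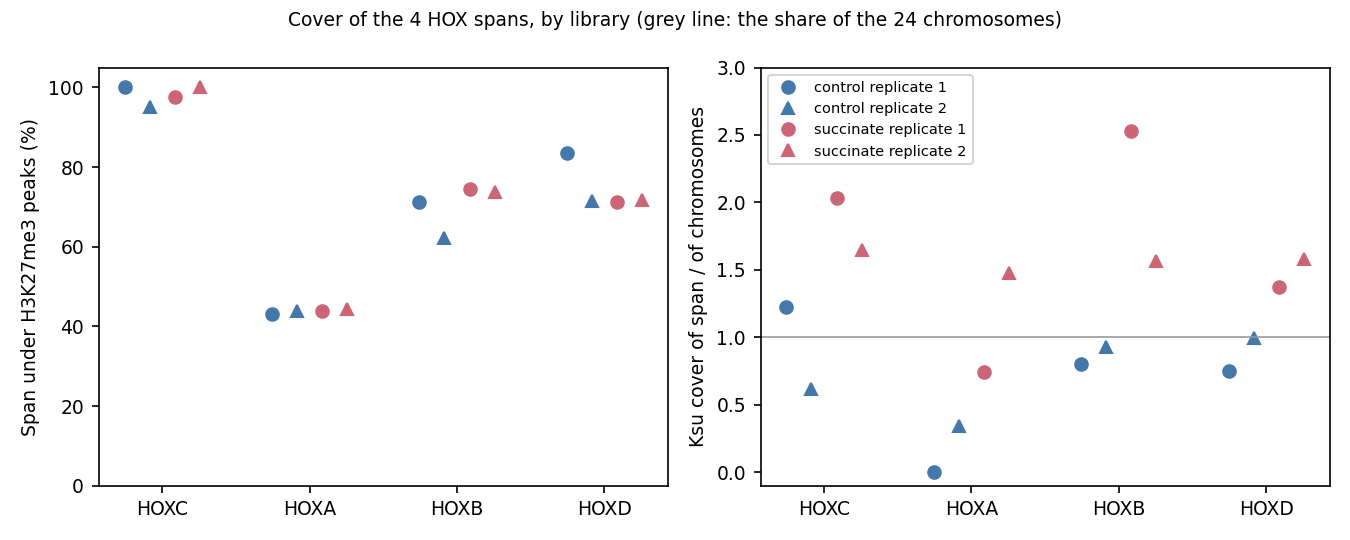
The 4 HOX spans by library, with H3K27me3 cover in percent on the left and Ksu cover divided by the Ksu share of the 24 chromosomes on the right; blue is control, red succinate, circles replicate 1, triangles replicate 2, and the grey line marks the share of the chromosomes. HOXC has 95.1% to 100% H3K27me3 cover, above HOXA, HOXB and HOXD in each library, while its Ksu ratio is the highest of the 4 in control replicate 1 (1.23) and succinate replicate 2 (1.65) and not in the other libraries.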

How the data were processed

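CUT&Tag libraries of H3K27me3 and Ksu from HepG2/C3A cells, 2 per treatment, were analysed as the authors' deposited peak lists, 1 list per library. Peaks were called with SEACR on hg38, per the submitters' processing notes. The aligner, threshold, control track and scaling are not given in the sources used here. Each deposited list holds coordinates and, as signal, a peak's total and highest value. Within 0.02, 100% of the highest values were whole multiples of 1 step per library, so the authors' signal was used only within a library or in steps.

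Peaks on the 24 chromosomes (3087 Mb, to the last peak or gene end) were used, with Python 3.11.15 and numpy 2.4.6. Covered bases were counted per gene body and span (overlap of 1 bp or more) from RefSeq GRCh38.p14. Treatments were compared by exact permutation of libraries, clusters by exact sign changes over 4 libraries. The functions were tested on simulated data. The text names all 9 members, the genes in the H3K27me3 block, the nearest protein-coding neighbours, and lists of HOXA, HOXB, HOXD, TALE and liver genes. The members and lists were chosen with earlier results of these data known. Alternatives were equal numbers of peaks, a common floor, the 50% strongest peaks, a minimum width of 500 bp, merging of peaks up to 1 kb apart, 10 kb added at each end, each library left out, and a replicate block.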

Additional observations from a re-analysis of the deposited data

How the results depend on the processing

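Over 13 results, 118 alternative values were computed. Of these, 101 were counted as staying in the same direction and within 1 SD between libraries (counts: within a factor of 1.5), 13 moved further and 4 turned. The 101 include values that could not move. The replicate block leaves each difference unchanged, and the H3K27me3 counts of 0 separated members were fixed by the ceiling. With so few libraries, leaving 1 out cannot shift a value by more than the SD used here. Such values could turn but could not be counted as moved, so their staying the same shows little. H3K27me3 treatment differences were also identical at equal numbers, a common floor, 500 bp and merging within 1 kb. For the number of H3K27me3 peaks the main difference was 0, so it could not turn, and -0.5 and 0.5 both counted as the same direction. No exact test used here could pass 0.05, so no call was at stake. The reference of 500 kb flanks was chosen after seeing the data, and gave a log2 difference of 0.21 for the relative Ksu cover. At equal numbers of peaks the Ksu difference became 3.37 for the span and 2.82 for gene bodies, and 0 members were separated by treatment. At a common floor these values became 1.85, 1.79 and 0, and H3K27me3 cover of HOXC minus the other clusters became 37.2. With the 50% strongest peaks the Ksu span difference was 7.82, its log2 ratio to the chromosomes 1.75, the members separated 1, and the H3K27me3 edge on the HOXC13 side 13769 bp. With peaks of at least 500 bp the Ksu span difference was 8.04. Equal numbers and a common floor gave no log2 ratio to the chromosomes, since control replicate 2 then had no Ksu peak in the span. The plain ratios were 1.23 and 0 for control and 3.57 and 0.954 for succinate at equal numbers. At a common floor they were 1.23 and 0 against 4.28 and 0.787. The treatments therefore overlapped in relative Ksu cover under both settings. All these settings but the flanks keep fewer peaks in some or all Ksu libraries. What caused the shifts was not tested.

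With 1 library left out at a time, the difference ranged from -1.23 (without control replicate 2) to 3.69 for H3K27me3 span cover, from -2.13 (also without control replicate 2) to 5.14 for gene bodies, and from -0.50 to 0.50 for the number of peaks. It was -0.00043 and -0.63 without succinate replicate 2 for the first 2 of these. The edges ranged from 294.5 to 2560.5 bp (HOXC4 side) and from 1006.5 to 10714.5 bp (HOXC13 side). Ksu ranged from 8.94 to 14.1 for the span, from 0.58 to 1.57 for its log2 ratio and from 7.32 to 14.6 for gene bodies. HOXC minus the other clusters ranged from 34.8 to 35.7 for H3K27me3 and from 0.72 to 1.98 for Ksu. The replicate block leaves each difference equal, for example 11.5 for Ksu span cover, with an exact sign permutation p of 0.5, the smallest that 2 pairs allow. The labels share only the replicate number, and 2 pairs cannot show whether it pairs the libraries.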

Other observations

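HOX proteins bind DNA together with TALE homeodomain cofactors, and 9 of these genes were measured in the same way. MEIS3 was 100% covered by H3K27me3 in all 4 libraries. PKNOX2 was 85.7% and 69.0% covered in control and 85.3% and 75.2% in succinate. PBX4 was 47.1% and 40.1% covered in control and 22.95% and 39.9% in succinate. Both succinate libraries were below both controls, by little in replicate 2. PBX4 was the 1 of 9 cofactors lower in this way, where 1.13% of all bodies were. Of the 9 cofactors, 3 were overlapped by H3K27me3 in all 4 libraries, against 9 of 9 HOXC genes and 12.3% of all protein-coding gene bodies. Ksu overlapped 5 of the 9 in all 4 libraries (31.7% of all bodies), and 4 of 9 were higher in both succinate libraries (46.6% of all bodies).

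Beyond the HOXC4 end of the cluster, FLJ12825, a long noncoding RNA gene from 54058254 to 54122234, begins 2223 bp outside the span and inside the H3K27me3 block of each library. It was 64.1% and 50.4% covered in control and 57.3% and 42.6% in succinate, so the treatments overlapped. LINC02381, from 54126071 to 54132843, was 100% covered in each. LOC100240735, from 54078839 to 54081823, was 55.7% and 0% covered in control and 100% in both succinate libraries. FAM242C was 57.5% and 100% covered in control and 100% and 19.2% in succinate. LOC100240734, from 54102209 to 54102699, was 0% covered in each.

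The ends of peaks within 1 bp of each other, as on the HOXC4 side of the cluster, were few over the chromosomes. Control replicate 2 and succinate replicate 2 had 99 such H3K27me3 peak ends, 1.79% of the shorter list and 1.70% of the longer. Over the 6 pairs of H3K27me3 libraries the share of the shorter list ranged from 1.70% to 2.02%.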
